A study of Mus musculus with 62 samples.

Results

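Regulators of G-protein signaling (RGS proteins) were followed through 9 genes, namely Rgs2, Rgs4, Rgs7, Rgs8, Rgs9, Rgs10, Rgs14, Rgs16 and Rgs17, out of 12483 genes in the deposited counts. The genes were picked by name with earlier results of these data known, among them their levels in the 3 regions, the comparison of the nucleus accumbens (NAc) with the prefrontal cortex (PFC), and the opposite movement of Rgs16 and Rgs4 across punches of the suprachiasmatic nucleus (SCN). Values on those points are therefore a description, with no p-value, and counts of calls stand beside the share of all genes called without being read as support. The study asked how circadian rhythm disruption (CRD), a series of 12 h shifts of the light cycle, affects the mouse brain. RNA from frozen punches was sequenced in 62 libraries, each made from 1 region of a single animal out of 26 mice (SCN 19, NAc 26, PFC 17). All were C57BL/6J mice, male and female, with no allele or transgene named, killed at ZT6 (6 h after lights on) about 4 weeks after CRD or control handling. The labels give the region and the number of the mouse (J1013 and so on). They do not say which libraries are CRD or control, or which sex, so each region mixes those groups and no effect of CRD was computed. The labels' protocol names both adolescent and adult exposure, while the study's methods for the tissue name adolescent CRD and its controls alone.

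Of the 9 genes, 8 were in the SCN table and 8 in the other table, which holds both other regions. Rgs16 was analysed in the SCN alone and Rgs14 in the NAc and PFC alone. Levels are CPM, that is counts scaled to a common library total, on 1 scale, set by edgeR's TMM factors over the 11133 genes shared by both tables. The tables had been filtered separately, so region and table cannot be told apart in any value of the SCN set beside another region.

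RGS proteins speed the hydrolysis of GTP by active G-protein alpha subunits, which shortens the signal from a G-protein-coupled receptor. Rgs2, Rgs4, Rgs8 and Rgs16 belong to the small R4 subfamily, in which Rgs2 acts mainly on Gq and the others on Gi/o and Gq. Rgs7 and Rgs9 belong to the R7 subfamily, which is stable only when bound to the beta subunit Gnb5. Rgs10 and Rgs14 are R12 proteins, and Rgs17 is an RZ protein with a preference for Gi/o and Gz. In the SCN, Rgs16 is known for a daily rhythm and for limiting Gi signaling, so that cAMP can rise in the neurons of the clock. Rgs9 is known as a regulator of dopamine and opioid receptors in striatal neurons.

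Of the 9 genes, 5 lie on chromosome 1 of GRCm38. Rgs8 and Rgs16 are neighbors on the same strand there, with 40.0 kb between the end of Rgs8 (chr1:153653025-153700323) and the start of Rgs16 (chr1:153740349-153745468). Rgs4 (chr1:169741477-169747642) lies on the opposite strand, next to Rgs5. The 250 bases before the RefSeq start (GRCm38.p6) of Rgs16 and Rgs4 are shown because these genes moved in opposite directions across the SCN punches. Capitals mark TGACG, the core of the cAMP response element, on either strand, and TATAAA, the TATA box, on either strand.
Rgs16, chr1:153740103-153740352, plus strand: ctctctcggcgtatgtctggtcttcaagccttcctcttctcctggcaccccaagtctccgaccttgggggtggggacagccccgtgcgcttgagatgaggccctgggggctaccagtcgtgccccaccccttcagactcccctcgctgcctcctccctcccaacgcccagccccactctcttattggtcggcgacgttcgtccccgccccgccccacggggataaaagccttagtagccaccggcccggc
Rgs4, chr1:169747643-169747892, minus strand: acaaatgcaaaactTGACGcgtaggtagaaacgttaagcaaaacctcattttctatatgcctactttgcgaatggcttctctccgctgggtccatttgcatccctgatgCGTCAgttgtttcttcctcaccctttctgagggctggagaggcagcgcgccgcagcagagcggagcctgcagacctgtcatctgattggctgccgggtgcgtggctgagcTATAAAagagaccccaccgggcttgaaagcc
The Rgs4 window held TGACG with its first base 236 and 141 bases before the start and TATAAA 31 bases before it. The Rgs16 window held neither. Among 32851 promoter windows of the same length, 17.8% held TGACG and 12.4% held TATAAA. The E-box CACGTG (6.02% of windows), the full response element TGACGTCA (1.55%), which contains TGACG, and the D-box TTATGTAA (0.819%) were in neither window. Within the set, CACGTG was found only before Rgs7, 29 bases from its start. TGACG was also found before Rgs2 and before a start of Rgs8, and TATAAA before Rgs9, so neither is particular to Rgs4. A promoter entry was found for 8 of the 9 genes, and Rgs14 had none in the table used. A match in these letters is a description of the sequence and no measure of binding.

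SCN libraries held 16496666 to 35389742 counts each, NAc libraries 28879724 to 60009482 and PFC libraries 31216225 to 50333579. Mitochondrial ribosomal RNA took a median of 38.2%, 49.4% and 46.6% of them, in the same order. Among SCN libraries, J1157 (20.5%) and J1159 (24.8%) had the lowest shares of it, against at least 33.5% in the others. They also held more counts of nuclear coding genes (23495106 and 21560540, against at most 12804310 in the others). The regions held their defining transcripts. Neuron markers of the SCN, with all 9 measured, summed to a median of 281.8 CPM there, and striatal projection neuron markers (10 of 10 measured) to 1804 CPM in the NAc. Cortical glutamatergic markers (6 of 7 measured) summed to 901.2 CPM in the PFC and to between 11.4 and 467.1 CPM in the NAc. The SCN libraries of J1199 and J1140 stood apart in striatal markers (7 of 10 measured, 484.3 and 242.4 CPM, against at most 122.8 CPM in the others). In addition, the SCN library of J1165 had 1403 counts of Xist, while the NAc and PFC libraries of that number had 23 and 18, so that library may come from another animal, which was not tested. The striatal list holds Six3, which is also expressed in the SCN, and without it the same libraries led (469.7 and 221.1 CPM, against at most 57.0 CPM in the others).

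Across the SCN punches, Rgs16 covered the widest range of the 8 genes measured there, with a highest level 16.3 times the lowest, followed by Rgs9 with 5.95 times. Without J1199 and J1140, Rgs9 covered 1.63 times and Rgs8, at 5.28 times over all libraries, came second. Rgs16 ranged from 6.80 CPM in J1018 to 110.9 CPM in J1157, with a median of 43.9 CPM (n = 19). The counts behind these levels ran from 154 to 6755 per library. J1199 (12.3 CPM) and J1011 (19.6 CPM) were the next lowest, and J965 (86.8 CPM) the next highest.

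Rgs4 moved the other way. It ranged from 24.4 CPM in J965 to 83.9 CPM in J1199, with a median of 37.2 CPM. The libraries with high Rgs16, namely J1157, J965, J1159 and J1160, were the 4 lowest in Rgs4. Of these, J1157 and J1159 are the SCN libraries with the least mitochondrial ribosomal RNA. Over the 19 libraries, Pearson's r between log2 levels of the 2 genes was -0.77 and Spearman's rho was -0.87. The r was -0.69 in mice numbered up to J1021 (7 libraries), -0.85 in those from J1140 (12 libraries), -0.75 without J1199 and J1140, and -0.78 without J1165. The range up to J1021 holds neither J1157 nor J1159, and no r was computed with those libraries alone left out. Without the 2 libraries farthest from the median, it was -0.79 when they were chosen by Rgs4 and -0.80 when they were chosen by Rgs16. Rgs16 shares 236 exonic bases with an antisense transcript, Gm28513, that was in neither table.

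**Figure D1:**
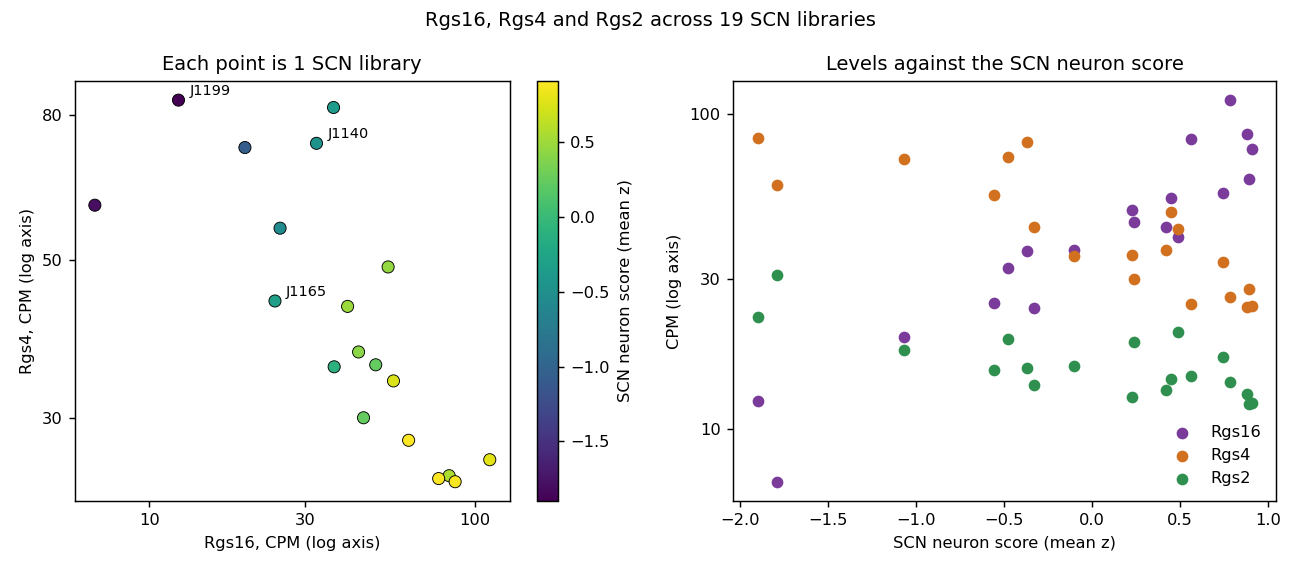
Left, Rgs16 (x axis) and Rgs4 (y axis) in CPM on log axes, 1 point for each of the 19 SCN libraries. Color gives the SCN neuron score (mean z-score of 9 marker genes), and J1199, J1140 and J1165 are named. Right, the levels of Rgs16, Rgs4 and Rgs2 in CPM on a log axis against that score. Rgs16 was higher where the score was high (r = 0.94), and Rgs4 (r = -0.83) and Rgs2 (r = -0.75) were lower where it was high.

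Both genes followed the markers of SCN neurons. A score made as the mean z-score of Avp, Vip, Grp, Nms and Prok2 (peptides), Six6 and Lhx1 (transcription factors), Syt10 and Gpr176 had r = 0.94 and rho = 0.93 with Rgs16, and r = -0.83 and rho = -0.88 with Rgs4. Each of the 9 markers had a positive r with Rgs16, from 0.69 (Avp) to 0.93 (Syt10), and a negative one with Rgs4, from -0.61 (Prok2) to -0.90 (Lhx1). The summed level of these markers ran from 78.5 to 414.3 CPM, and none was at 0 in any SCN library. After a straight line on the score was taken from both genes, a step chosen after the data had been seen, the r between Rgs16 and Rgs4 was 0.042. That value follows from the r values already given and is no separate test, and the cause of the opposite movement was not tested. In such bulk punches, fewer cells of a type and less RNA per cell cannot be told apart.

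Rgs2, which acts mainly on Gq, ranged from 12 CPM in J1021 to 30.9 CPM in J1018, with a median of 15.4 CPM in the SCN. Its r with Rgs16 was -0.77 (rho = -0.64), but it was -0.45 without the 2 libraries farthest from the median of Rgs2. Its r with the SCN neuron score was -0.75, and -0.45 once the 2 libraries with the most extreme scores were left out. Both values thus rest in part on a few libraries. Rgs7 (r = -0.58, and -0.47 without J1199 and J1140) and Rgs17 (r = -0.65, and -0.57) were also lower where the score was high. Rgs9 had r = -0.58 with the score over all SCN libraries and -0.24 without J1199 and J1140. Rgs10 had r = -0.23 (rho = -0.47), and -0.61 once the 2 libraries with extreme scores were left out. Rgs8 had -0.070 over all libraries, with 0.50 up to J1021 and -0.48 from J1140. Microglia markers (8 of 10 measured, 80.4 to 174.7 CPM in sum) had r = 0.60 with Rgs2 and -0.62 with Rgs16, and 0.54 and -0.35 without the 2 libraries farthest in that score.

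Rgs9, the striatal member, was at 54.7 CPM in J1199 and 26.9 CPM in J1140, and between 9.19 and 15.0 CPM in the other 17 SCN libraries. These are the libraries that stood apart in striatal markers, and r between Rgs9 and that marker score was 0.92 over all SCN libraries and 0.21 without the pair (0.93 and 0.22 with Six3 left out of the score). Rgs8 was high in the same libraries (26.4 and 31.0 CPM), but its highest value, 32.2 CPM, was in J1020. Its r with the striatal marker score was 0.47, and 0.14 without the pair, and with Six3 left out of the score 0.41 and -0.18. Rgs10 was lower where markers of oligodendrocytes (r = -0.74) and astrocytes (r = -0.74) were high, and Rgs8 where ependymal markers were high (r = -0.68). The sums of these lists ran from 390.2 to 2811 CPM, from 1655 to 2851 CPM and from 12.6 to 122.9 CPM, with all genes of each measured.

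**Figure D2:**
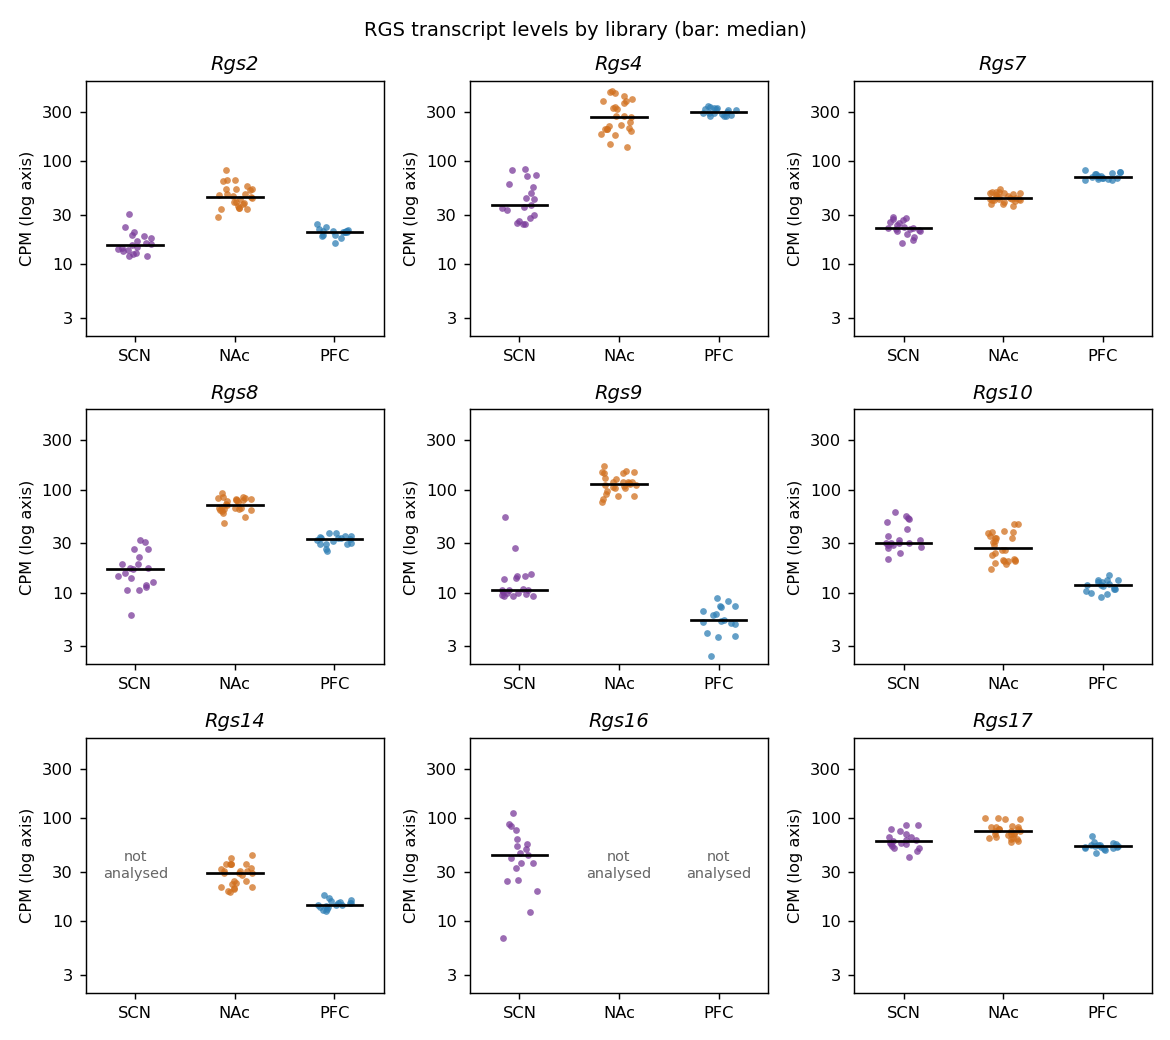
CPM on a log axis for each of the 9 genes, 1 point per library, for the SCN (19 libraries), NAc (26) and PFC (17), with a bar at the median. Rgs9 is far lower in PFC than in NAc libraries, Rgs4 is low in the SCN, and Rgs16 covers a wide range in the SCN.

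Between the NAc and PFC, 7 of the 8 genes measured were called, 6 higher and 1 lower in the NAc, where a call needs a fold of at least 1.2 with an adjusted p below 0.05 among 11569 genes. Of all those genes, 45.4% were called, 23.7% as higher and 21.7% as lower there. The libraries of the regions did not overlap for 6 of the 8 genes, against 9.48% of all genes (4.82% with the NAc above and 4.66% with it below). The median log2 fold change of the 8 genes was 1.07 and that of all genes 0.016. This contrast had a part in the choice of the genes, so nothing is read from these shares.

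Rgs9 had the largest difference of the set. It ranged from 76.4 to 171.1 CPM in the NAc (median 114.5 CPM), while PFC libraries lay between 2.39 and 8.94 CPM (median 5.40 CPM), with a log2 fold change of 4.34 (SE 0.13). Every NAc library was above every PFC library, and it was higher in the NAc in 17 of 17 mice with both regions. Within the PFC, Rgs9 was higher where striatal markers were higher (r = 0.68, n = 17), with 0.69 up to J1021 and 0.75 from J1140. Those markers summed to between 64.3 and 126.6 CPM in the PFC, with Drd2 and Six3 at 0 in at least 1 library.

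The 2 members of the R12 subfamily were also higher in the NAc. Rgs10, which is abundant in microglia and also found in neurons, ranged from 16.8 to 46.6 CPM (median 27.3 CPM) there, and from 9.14 to 14.9 CPM (median 11.7 CPM) in the PFC. The log2 fold change was 1.31 (SE 0.12), and the regions did not overlap. Microglia markers (10 of 10 measured) summed to a median of 214.3 CPM in NAc and 201.4 CPM in PFC libraries. Their score had r = 0.55 with Rgs10 in the NAc (0.33 up to J1021, 0.76 from J1140) and 0.27 in the PFC (-0.41 and 0.61). This was not particular to Rgs10. Rgs14 and Rgs8 (each 0.59) were higher with that score in the NAc, where Rgs17 had -0.55, and Rgs4 (0.54) and Rgs8 (0.51) were higher in the PFC. In the SCN, Rgs10 had -0.32 with the microglia score. Rgs14, which carries a second G-alpha-binding motif, ranged from 19.2 to 43.8 CPM (median 29.2 CPM) in the NAc and lay between 12.6 and 17.9 CPM (median 14.4 CPM) in PFC libraries, without overlap. Its log2 fold change was 0.99 (SE 0.088).

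In the R4 subfamily, Rgs2 and Rgs8 were higher in the NAc, but Rgs4 was not called. Rgs2 ranged from 28.9 to 82.3 CPM (median 45.1 CPM) in the NAc and lay between 16.1 and 24.5 CPM (median 20.7 CPM) in PFC libraries, with a log2 fold change of 1.21 (SE 0.094). Rgs8 ranged from 47.8 to 92.5 CPM (median 71.3 CPM) in the NAc and lay between 25.1 and 37.9 CPM (median 32.9 CPM) in PFC libraries, with a log2 fold change of 1.16 (SE 0.064). Neither gene overlapped between the regions, and both were higher in the NAc in 17 of 17 mice.

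Rgs4 had the highest median of these genes per kilobase of exon in both regions, and its NAc libraries lay on both sides of its PFC libraries. It ranged from 137.3 to 477.9 CPM in the NAc (median 270.2 CPM), while PFC libraries lay between 273.2 and 345.7 CPM (median 297.7 CPM). The coefficient of variation was 36.1% in the NAc (n = 26) and 7.51% in the PFC (n = 17). Its log2 fold change was -0.070 (SE 0.12), and it was higher in the NAc in 8 of 17 mice and higher in the PFC in 9. The sign changed with the mice used, with 0.084 in the mice with both regions, 0.019 in the same mice with mouse number as a block, and 0.036 in mice numbered up to J1021.

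Rgs7 was the 1 gene lower in the NAc, and Rgs17 differed least of those called. Rgs7 ranged from 37.0 to 53.1 CPM (median 44.1 CPM) in the NAc and lay between 65.5 and 81.4 CPM (median 70.6 CPM) in PFC libraries, without overlap and lower in the NAc in 17 of 17 mice, with a log2 fold change of -0.68 (SE 0.040). Rgs17 ranged from 58.9 to 100.9 CPM (median 74.3 CPM) in the NAc and lay between 46.0 and 67.1 CPM (median 53.7 CPM) in PFC libraries. The regions overlapped for Rgs17, which was higher in the NAc in 16 of 17 mice (log2 fold change 0.50, SE 0.061).

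**Figure D3:**
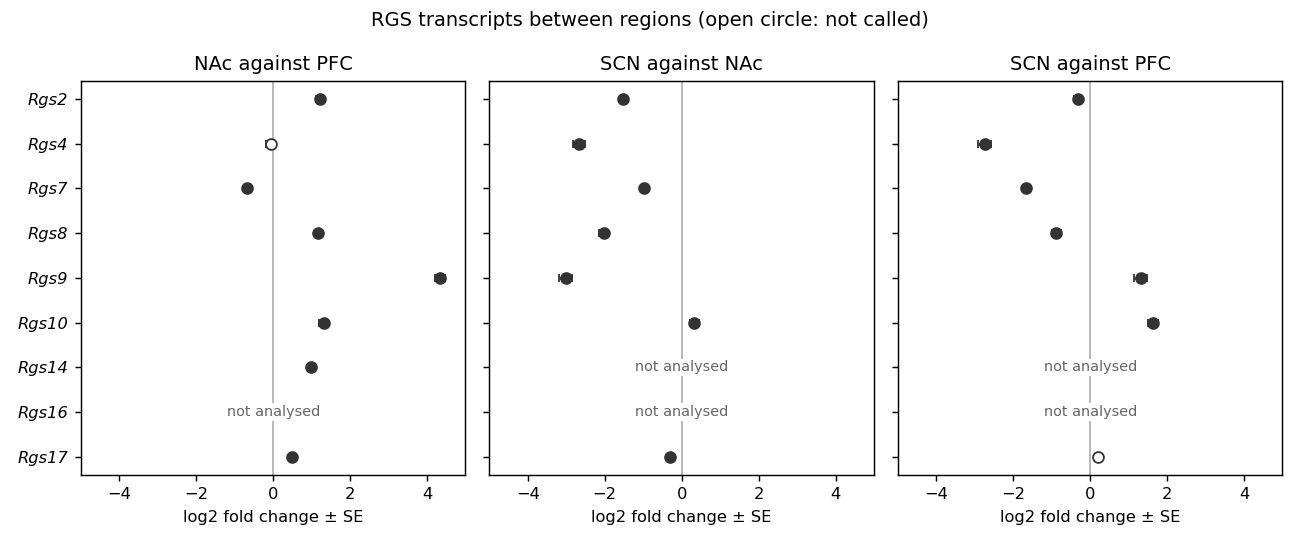
Log2 fold change of each gene with its standard error in the 3 comparisons of regions, with filled circles for genes called and open circles for those not called. Rgs9 lies at 4.34 for the NAc against the PFC and at -3.02 for the SCN against the NAc, and Rgs4 lies near 0 in the first comparison and at -2.67 and -2.75 in those with the SCN.

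The SCN was set beside the other regions over the genes in both tables. Of the 7 genes measured in all regions, 6 were called lower and 1 higher in the SCN than in the NAc, where 64.1% of 11133 genes were called, 31.0% lower and 33.1% higher. Against the PFC, 4 were called lower and 2 higher, where 64.7% of genes were called, 31.0% lower and 33.7% higher. Libraries did not overlap for 4 of the 7 genes in each of these comparisons, against 13.2% of all genes with the NAc (5.63% with the SCN above, 7.54% below) and 20.7% with the PFC (8.96% above, 11.7% below). The comparisons share the SCN libraries.

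Rgs4 had the largest gap with the PFC. Its highest SCN library, at 83.9 CPM, was below its lowest NAc library, at 137.3 CPM, and the log2 fold change was -2.67 (SE 0.16) against the NAc and -2.75 (SE 0.17) against the PFC. Without J1199 and J1140 these values were -2.80 and -2.88. Rgs7 was ordered SCN, NAc, PFC from lowest to highest with no overlap between neighbors (SCN range 16 to 28.8 CPM).

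Rgs8 was lowest in the SCN, at 6.10 to 32.2 CPM (median 16.8 CPM), and overlapped the PFC but not the NAc. Rgs2 followed the same order of medians, and its SCN range overlapped both other regions. Rgs9 was lowest in the PFC, and the SCN lay above it without overlap, by 1.32 on the log2 scale (SE 0.17). Without J1199 and J1140 that difference was 0.96, and the difference from the NAc was -3.37 rather than -3.02. Rgs10 had a higher median in the SCN (30.6 CPM) than in the NAc (27.3 CPM), but these regions overlapped and it was higher in the SCN in 13 of 19 mice. The call of Rgs10 against the NAc was lost in mice numbered from J1140, where its log2 fold change was 0.23. Rgs17 overlapped in every pair of regions, and its difference between the SCN and PFC, 0.21 (SE 0.075), was not called.

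Levels of different genes were compared per kilobase of annotated exon. In the SCN, the highest medians were those of Rgs16 (18.8 CPM per kb), Rgs10 (17.9 CPM per kb) and Rgs4 (12 CPM per kb), and their ranges overlapped. In the NAc, Rgs4 led with 87.2 CPM per kb, and its lowest library (44.3 CPM per kb) was above the highest library of the next genes, Rgs9 (17.9, at most 26.8 CPM per kb) and Rgs10 (15.9, at most 27.2 CPM per kb). In the PFC, Rgs4 was again first with 96.1 CPM per kb, followed by Rgs7 (11.7 CPM per kb), and Rgs9 was last (0.846 CPM per kb). Rgs4 is thus the leading member in the NAc and PFC on this scale, and no single gene is apart from the others in the SCN. Exon lengths join all annotated isoforms, which lowers the value of genes with many.

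**Figure D4:**
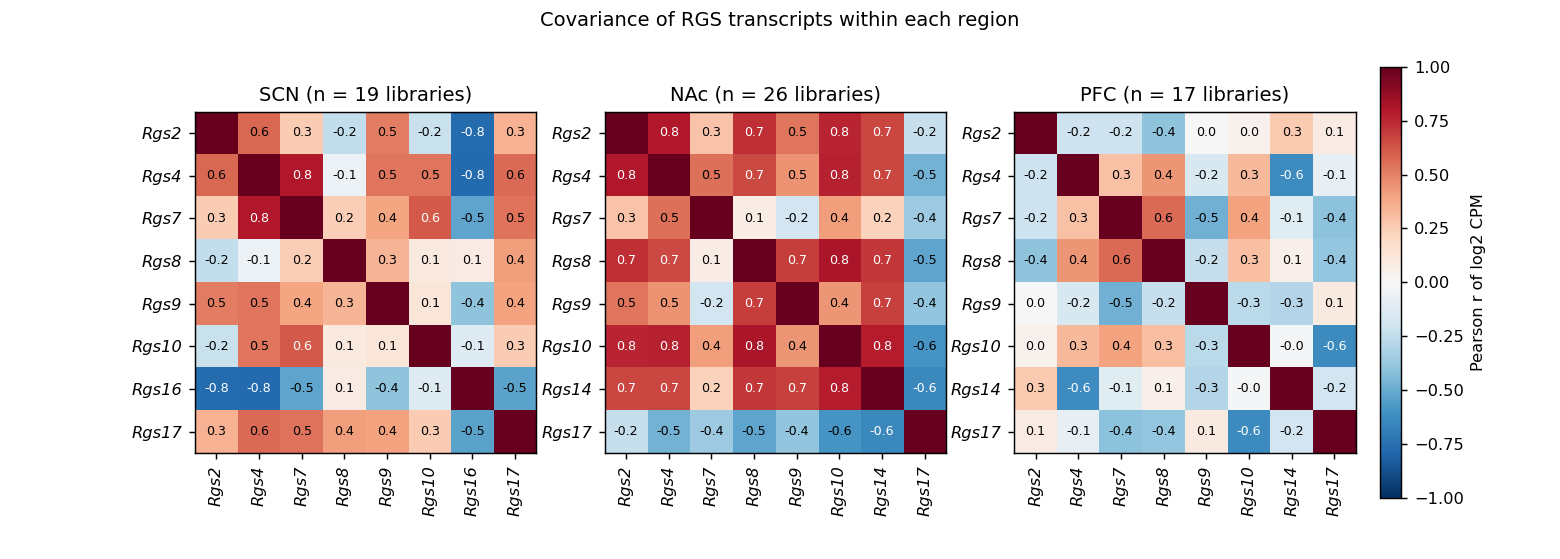
Pearson's r of log2 CPM between each pair of genes within the SCN (19 libraries), NAc (26) and PFC (17), with red for positive and blue for negative values. In the SCN the row of Rgs16 is mostly blue, in the NAc the block of Rgs2, Rgs4, Rgs8, Rgs10 and Rgs14 is red, and the PFC shows few strong values.

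Within the NAc, many of these genes varied together. Of 28 pairs, 14 had r of at least 0.5 and 3 had r of -0.5 or lower in the NAc, and in the PFC these numbers were 1 and 2. In the PFC libraries of the lower mouse numbers alone (7 libraries), 15 pairs had an absolute r of at least 0.5, and in those of the upper numbers (10 libraries) 5 did. In the SCN, 8 pairs had r of at least 0.5 and 4 had r of -0.5 or lower, 12 in all. Without J1199 and J1140, 6 pairs reached that size, 5 of them among the 12. For all pairs of genes, an absolute r of at least 0.5 was found for 24.1% (NAc), 18.8% (PFC) and 18.5% (SCN). These shares cover all libraries of each region. None was computed for the smaller sets of libraries, where an r of that size arises more easily for any pair of genes. The highest r in the NAc was 0.82, between Rgs8 and Rgs10, followed by 0.80 between Rgs2 and Rgs4. It was 0.80 in the SCN as well, where it joined Rgs4 and Rgs7. The 3 strong negative pairs all involved Rgs17, with Rgs14 (-0.64), Rgs10 (-0.59) and Rgs8 (-0.53). These relations are given without a test, and the points of a region share their depth and tissue makeup.

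Among the marker scores, the strongest tie in the NAc was between Rgs8 and the markers of striatal projection neurons, with r = 0.93 (rho = 0.93) for their score. With that score Rgs9 had 0.83 and Rgs14 0.83, and Rgs10 (0.79), Rgs2 (0.73) and Rgs4 (0.68) followed. Rgs7 had 0.036 with it, and Rgs17 went the other way (-0.59). With the cortical glutamatergic score, Rgs10 (-0.84), Rgs2 (-0.83) and Rgs8 (-0.78) were negative, and they were so in both ranges of mouse numbers. For Rgs10 and Rgs2 these values were larger in size than those with the striatal score. The sum of the cortical markers was highest in the NAc libraries of J1199 (467.1 CPM) and J1140 (290.9 CPM), and Neurod2 was at 0 in at least 1 library. Without these libraries, left out after the data had been seen, r was 0.80 between Rgs8 and Rgs10 and 0.73 between Rgs2 and Rgs10. For Rgs9, r with the striatal score was 0.59 in mice numbered up to J1021 and 0.93 in those from J1140. In the PFC, Rgs10 was again lower where cortical markers were higher (r = -0.75), with -0.33 up to J1021 and -0.88 from J1140. Astrocyte markers (7 of 7 measured, 1977 to 3677 CPM in sum) had negative values in the NAc, with r = -0.69 for Rgs4, -0.65 for Rgs7 and -0.65 for Rgs10. Rgs17 had a positive value with them (r = 0.48).

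**Figure D5:**
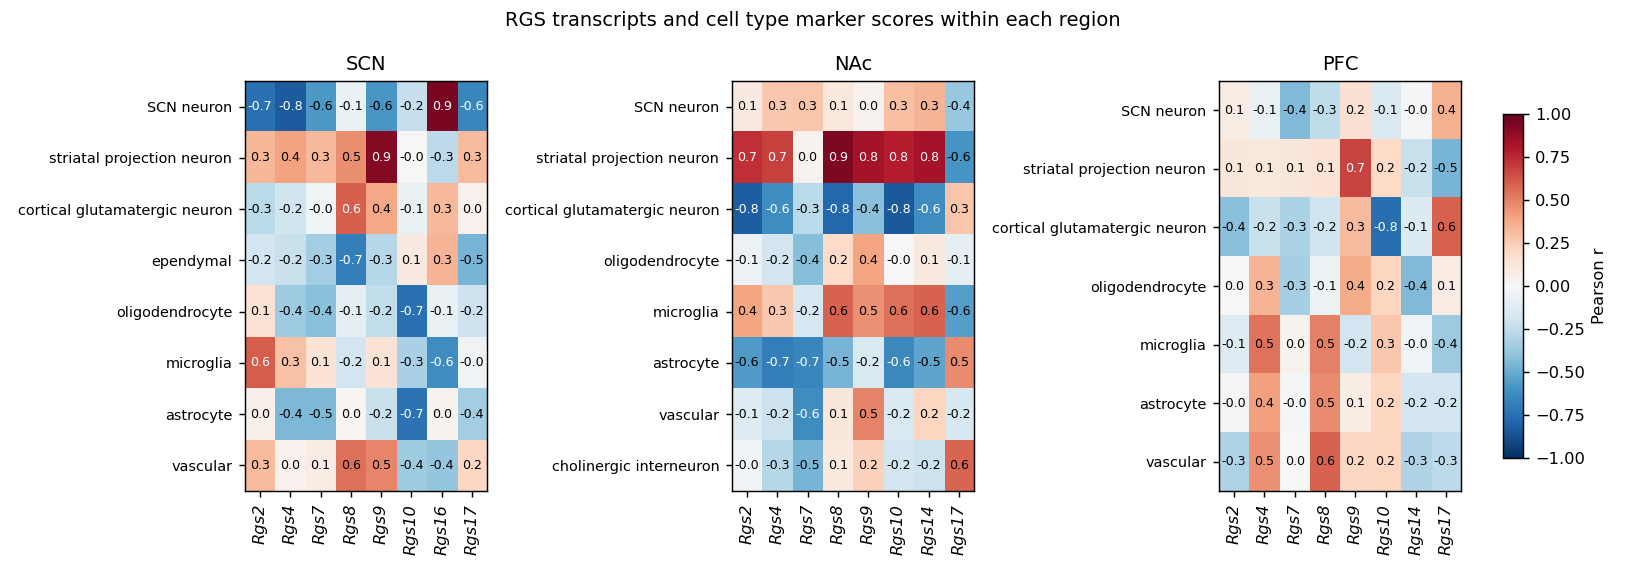
Pearson's r between each gene (columns) and the score of each marker list (rows) within the SCN, NAc and PFC, with red for positive and blue for negative values. Some rows rest on few genes. The cortical row of the SCN is 1 gene of 7 (Cux2), and the cholinergic row of the NAc is 1 gene of 4 (Slc5a7). The SCN neuron rows of the NAc and PFC hold 3 genes of 9. Rgs16 and the SCN neuron score stand out in the SCN (0.94), and Rgs8 and the striatal projection neuron score in the NAc (0.93).

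The genes most like Rgs16 over the 19 SCN libraries, among 12046 others, were Rasl11b (r = 0.96), Nr4a3 (0.96) and Akap17b (0.95). Those most like Rgs4 were Dgkb, Tmem158 and Actr3b, each at 0.89, and its lowest values were with Six3 (-0.91) and Lhx1 (-0.90). Dgkb, a diacylglycerol kinase, was also the third lowest gene for Rgs16 (r = -0.85). Rgs9 was most like Wfs1 (0.94, and 0.63 without J1199 and J1140) in the SCN, Pde1b (0.91) in the NAc and Ppp1r1b (0.86), a striatal marker, in the PFC. Rgs8 was most like Chrm2 (0.89) in the SCN and Adora2a (0.90) in the NAc. Rgs17 had its lowest r in the SCN with Avp (-0.87), the gene of the vasopressin peptide.

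Of 12 other RGS genes listed, 6 were measured in all regions and Rgs22 in the SCN alone. Between the NAc and PFC, 3 were higher, 2 were lower and Rgs5, a marker of pericytes, was not called, where 45.4% of all genes were called (adjusted p by Benjamini-Hochberg over all genes, from the quasi-likelihood test of edgeR). Rgs6, an R7 relative of Rgs7, had lower levels in NAc libraries (log2 fold change -1.12, SE 0.067, adjusted p = 2e-19). Rgs20, an RZ relative of Rgs17, was higher (0.57, SE 0.10, adjusted p = 4.6e-06), as were Rgs12 (0.54, SE 0.077, adjusted p = 4.7e-08), an R12 protein, and Rgs3 (0.30, SE 0.091, adjusted p = 0.0042). Rgs19, another RZ protein, was lower (-0.35, SE 0.074, adjusted p = 8.3e-05). The call of Rgs3 was lost in the mice with both regions, at 0.26 (SE 0.10) without and 0.24 (SE 0.11) with mouse number as a block, and in mice numbered up to J1021 (0.27, SE 0.15).

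The partners of the R7 proteins were called higher in the NAc when set beside the PFC, and lower in the SCN than in either region, for all 3 of the 5 listed that were measured. Of all genes, 23.7% were called higher in the NAc against the PFC and 31.0% lower in the SCN against each region. Gnb5, the required beta subunit, was higher in the NAc by 0.74 (SE 0.069, adjusted p = 5.5e-13), and the receptor Gpr158, which anchors R7 proteins, by 0.61 (SE 0.076, adjusted p = 1.6e-09). Rgs7bp, a membrane anchor, was lower in the SCN than in the NAc by a log2 fold change of -3.22 (SE 0.15, adjusted p = 2.9e-29), and Rgs7 and Rgs9 themselves by -0.98 and -3.02. The R7 genes did not all share the order of their partners. Rgs7 (-0.68) and Rgs6 (-1.12) were lower in the NAc than in the PFC, while Rgs9 was higher (4.34). Against the PFC, Rgs9 was higher in the SCN (1.32), and Rgs7 (-1.67) and Rgs6 (-1.74) were lower.

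Among 11 measured G-alpha subunits, 2 were higher and 3 lower in the NAc than in the PFC, a share like that of all genes called (45.4%). Gnal, the olfactory and striatal stimulatory subunit, was higher by 2.44 (SE 0.083, adjusted p = 1e-28), and Gnaz, the Gz subunit, was lower (-0.43, SE 0.068, adjusted p = 4.5e-07). Against the NAc, 6 of the 11 were called higher and 2 lower in the SCN, where 33.1% of all genes were higher and 31.0% lower. Gnaz was among the 6 (0.52, SE 0.071, adjusted p = 1.6e-09), but Gnas (1.49), Gna13 (0.85), Gnai2 (0.65) and Gna12 (0.59) had larger values. Gpr176, the orphan receptor of SCN neurons that couples to Gz, was also higher there (1.26, SE 0.073, adjusted p = 1.7e-24). It is one of the SCN neuron markers used here. Against the PFC, Gnaz was not called (0.091, SE 0.079), while Gpr176 was higher in the SCN (1.83, SE 0.085).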

How the data were processed

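Counts per gene were used as deposited by the authors, who checked paired-end reads of SMART-Seq HT libraries with FastQC (version 0.11.7). They used HISAT2 for alignment on the Ensembl GRCm38 genome and HTSeq (union mode) for counting. Their methods name a filter of above 1 CPM in at least 50% of each group, and removal of chromosome Y. The gene numbers they give after it are lower than those of the tables used here, so the filter behind these tables may differ. Whether strand was used is not given in the sources used here. The SCN table (12047 genes) and the NAc and PFC table (11569 genes) were filtered separately, with 914 and 436 genes of their own.

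Regions were compared with edgeR 4.0.16 (R 4.3.3), by TMM scaling, filterByExpr and the quasi-likelihood test, adjusted by Benjamini-Hochberg over all genes. Correlations used log2 CPM with a prior count of 2. Alternatives were DESeq2 1.42.0, other scalings and filters, ranges of mouse numbers, left-out libraries and mouse number as a block. Same-numbered libraries were taken as 1 mouse, as labelled, though the SCN library of J1165 may not be. The correlation of their deviations from the region means had a median of -0.019 (NAc and PFC, 17 mice), 0.0024 (SCN and NAc, 19) and 0.082 (SCN and PFC, 12). No pair of libraries agreed within counting noise. Fits were tested on simulated data.

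The 9 genes and all lists were chosen with earlier results of these data known. Genes named were the 9, members of the fixed lists (other RGS genes, R7 partners, G-alpha subunits, Gi/o and Gz receptors, GoLoco genes, cell type markers) and the 3 genes with the highest r for each gene and region. The lowest r values were added after they were seen. CRD and sex were not analysed here.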

Additional observations from a re-analysis of the deposited data

How the results depend on the processing

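Of 212 alternative values for the fold changes of the RGS genes, 206 kept their direction and call. Rgs4 between the NAc and PFC, at -0.070 and not called, changed sign with the replicate block (0.019), in the mice with both regions without the block (0.084) and in mice numbered up to J1021 (0.036). The call was lost for Rgs10 (0.23) and Rgs17 (-0.19) between the SCN and NAc in mice numbered from J1140, and for Rgs2 (-0.21) between the SCN and PFC in those up to J1021. The paired fit with the replicate block changed no call of the 9 genes. In the mice with both regions it called 5681, 7039 and 7153 genes for NAc against PFC, SCN against NAc and SCN against PFC, while the same mice without the block gave 5743, 7047 and 7111. With the block and without the SCN library of J1165 the last 2 counts were 7050 and 7105, and these SCN fits without the block or J1165 were chosen once the data had been seen. Of the other RGS genes, 4 rather than 5 were called between the NAc and PFC in those mice with or without the block. All 40 alternative medians moved by less than 1 SD. The r between Rgs16 and Rgs4 stayed negative under every alternative but the residuals on the SCN neuron score (0.042), added after the data had been seen. The residual value follows from the r of the genes with that score and with each other, and is no separate test. Pairs of absolute r of at least 0.5 in the SCN went from 12 to 6 without the 2 libraries farthest from the median and to 6 without J1199 and J1140. In the PFC they went from 3 to 15 in mice numbered up to J1021 and to 5 in those from J1140. The cause was not tested. The filter removed no gene, so leaving it out could not change a value. The planned correlation of Rgs16 and Rgs4 in the NAc and PFC was not run, since Rgs16 was not analysed there.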

Other observations

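Receptors that couple to Gi/o or Gz, the signals that most RGS proteins shorten, were listed with 35 genes, of which 31 were measured in the NAc and PFC. There, 13 were called higher and 10 lower in the NAc, with a median log2 fold change of 0.18, where 23.7% of all genes were called higher and 21.7% lower (quasi-likelihood test of edgeR, p adjusted by Benjamini-Hochberg). The dopamine receptor Drd2 was higher in the NAc (5.87, SE 0.24, adjusted p = 1.8e-25), as were the opioid receptors Oprk1 (3.65, SE 0.18, adjusted p = 6.2e-23) and Oprm1 (2.99, SE 0.14, adjusted p = 3.3e-23). The opioid receptor Oprd1 (0.094, SE 0.082) and the nociceptin receptor Oprl1 (-0.20, SE 0.059) were not called. The metabotropic glutamate receptors were split, with Grm4 higher (2.16, SE 0.080, adjusted p = 2.4e-27) and Grm2 lower (-3.57, SE 0.25, adjusted p = 6.7e-17).

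Of the 23 receptors compared in the SCN, 7 were called higher and 12 lower than in the NAc, where 33.1% of all genes were higher and 31.0% lower. The alpha-2A adrenergic receptor Adra2a was higher (1.93, SE 0.21, adjusted p = 8.5e-13), as was the nociceptin receptor Oprl1 (1.48, SE 0.066, adjusted p = 3.2e-30). Among the 12 lower were the adrenergic receptor Adra2c (-2.64, SE 0.18) and the opioid receptors Oprk1 (-1.26, SE 0.15) and Oprm1 (-1.11, SE 0.12). Against the PFC, 7 of the 23 were called higher and 10 lower in the SCN, where 33.7% of all genes were higher and 31.0% lower. In that comparison Oprk1 (2.39, SE 0.18) and Oprm1 (1.88, SE 0.15) were higher in the SCN, and Adra2c was lower (-0.56, SE 0.185). The list of genes with a GoLoco motif, the second G-alpha-binding motif of Rgs14, holds no RGS gene, and 3 of its genes were measured. Of these, Rap1gap (1.34, SE 0.080, adjusted p = 1.3e-19) and Gpsm1 (0.87, SE 0.089, adjusted p = 8.2e-12) were called higher in the NAc when set beside the PFC. For all genes that share was 23.7%. Gpsm2 had 0.024 (SE 0.057, adjusted p = 0.73).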
